A study of Mus musculus with 6 samples.

Results

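Axon growth-associated genes are transcripts known from injured or growing neurons, and 7 of them were followed here through the crushed mouse spinal cord: Gap43, Basp1, Sprr1a, Nrn1, Flrt3, Ecel1 and Gadd45a. They were chosen by name, as the rows of the deposited tables that carry those gene symbols, and each symbol matched 1 of the 36629 genes listed. The tissue was spinal cord from C57/BL6 mice aged 3 to 5 weeks, taken 3 days after surgery as segments T8 to T12. In the injured group (SCI, 3 libraries) the cord was bared by laminectomy at T9 and T10 and compressed by a vascular clip of 60 g force for 5 seconds. In the sham group (3 libraries) the cord was bared in the same way and not crushed, so both groups had the laminectomy. The sham libraries carry the treatment tag "untreated" and are named as sham in their titles. The sex of the mice, and whether a library came from 1 animal or a pool, could not be read from the labels, so p-values measure only the spread between these libraries. The stated aim was to compare the transcriptomes of injured and uninjured cord at the lesion.

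When an axon of a peripheral neuron is cut, its cell body switches on a set of regeneration-associated genes, under transcription factors such as ATF3 and c-Jun, while most neurons of the adult central nervous system do so weakly. GAP-43 and BASP1 (also called CAP-23) are acylated proteins of the inner growth cone membrane, SPRR1A is a small proline-rich protein that injured sensory neurons begin to make, and neuritin (Nrn1) is a membrane-anchored ligand that promotes neurite growth and synapse maturation. FLRT3 is an adhesion protein with leucine-rich repeats, ECEL1 (also called DINE) is a membrane metallopeptidase induced in damaged neurons, and GADD45A is a nuclear protein of the DNA damage and stress response. Most of these genes are also used outside neurons, SPRR1A by keratinocytes and GADD45A by many stressed cells, and a piece of cord mixes all cells it holds.

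The values are FPKM (fragment counts divided by gene length and by library size), a level per length, as the authors deposited them. They summed to between 716215 and 734791 per library, and the depth behind them is unknown. SCI replicate 2 stood apart by its haemoglobin transcripts, which took 6.16% of its FPKM, against 0.211% to 0.656% in the other SCI libraries and 0.109% to 0.126% in the sham libraries. SCI replicate 3 stood apart by transcripts of sensory ganglion neurons and of skeletal muscle, described further on, and results are given with and without it.

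The 7 genes moved apart in the injured cord: Sprr1a, Gadd45a, Gap43 and Ecel1 rose, Nrn1 fell, and Basp1 and Flrt3 did not pass the test. The test was limma's moderated test on log2(FPKM + 1) over 17435 genes, with Benjamini-Hochberg adjusted p under 0.05 as the threshold. All 7 passed the filter on low values, which asked for 1 FPKM in 3 of the 6 libraries. Of the genes tested, 57.5% passed the threshold in either direction, with 26.7% higher and 30.8% lower, so 5 of 7 is close to what the whole table showed. The median log2 change was 0.41 over the 7 genes and −0.08 over all genes tested. The SCI and sham libraries did not overlap for 5 of the 7 genes, while this was so for 67.6% of the genes tested.

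**Figure D1:**
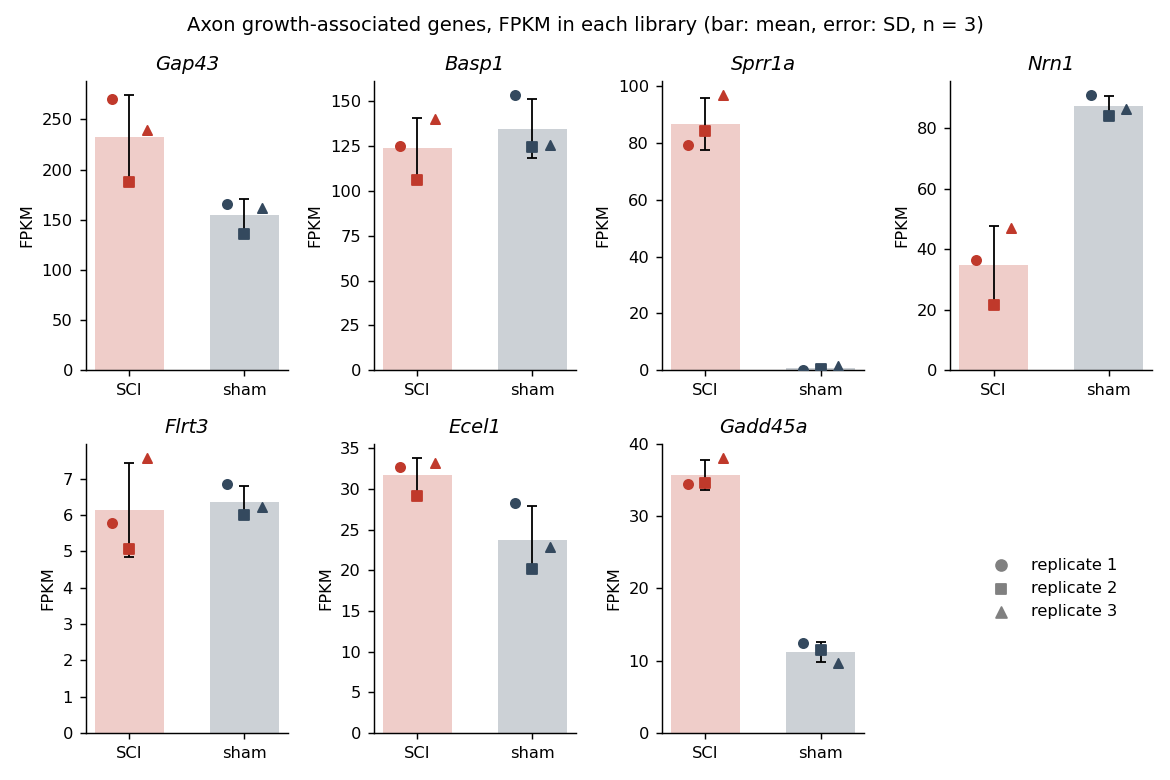
FPKM (vertical axes, from 0) of the 7 axon growth-associated genes in SCI and sham libraries; bars are means, error bars are SD (n = 3 each) and symbols are single libraries. Sprr1a lies between 79.3 and 97.0 FPKM in SCI libraries and at no more than 1.40 in sham libraries, Nrn1 is lower in each SCI library, and the symbols of Basp1 and Flrt3 overlap.

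In order of level, the SCI libraries had Gap43, Basp1, Sprr1a, Gadd45a, Nrn1, Ecel1 and Flrt3, from a mean of 233 FPKM to one of 6.13. In the SCI libraries the range of Nrn1 overlapped those of its neighbours Gadd45a and Ecel1, and no other neighbours in that order overlapped. The sham libraries had Gap43, Basp1, Nrn1, Ecel1, Gadd45a, Flrt3 and Sprr1a, from 154 FPKM to 0.613, and of these neighbours only Gap43 and Basp1 overlapped. Sprr1a thus ranked 3 of 7 in injured cord and last in sham cord, while Gap43 and Basp1 were the most abundant in both.

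Gap43, whose product is a protein kinase C substrate that binds calmodulin, was at 270, 188 and 240 FPKM in SCI replicates 1, 2 and 3, against 166, 136 and 161 FPKM in sham replicates 1, 2 and 3. Each SCI library lay above each sham library, with SCI replicate 2 nearest to them. The mean was 1.51-fold higher, at 233 ± 41.8 FPKM in SCI and 154 ± 16.3 FPKM in sham libraries (SD, n = 3 each). The log2 change was 0.58 (SE 0.15, limma adjusted p = 0.012).

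Basp1, whose product binds the same inner membrane lipids, was at 125, 106 and 140 FPKM in SCI replicates 1, 2 and 3, against 154, 124 and 126 FPKM in sham replicates 1, 2 and 3. The groups overlapped, and the log2 change of −0.12 did not pass (SE 0.13, limma adjusted p = 0.44), with a 95% interval from −0.42 to 0.18. The ratio of Gap43 to Basp1 within a library, chosen after the values were seen, was 2.16, 1.77 and 1.71 in SCI replicates 1, 2 and 3, against 1.08, 1.09 and 1.28 in sham replicates 1, 2 and 3. It was higher in 3 of 3 SCI libraries than in any sham library, and the exact two-sided permutation p of 0.1 is the smallest that 3 against 3 can give. Such a ratio does not depend on how the libraries were scaled.

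Other genes of growth cone membrane and cytoskeleton went both ways, with 7 of 18 tested higher and 10 lower, and a median log2 change of −0.57. The lower genes numbered 6 without sham replicate 1, 5 without sham replicate 3 and 6 when low genes were tested as well. Among those that rose were the relatives of GAP-43 and BASP1 that are also protein kinase C substrates, Marcks at 80.9 ± 2.57 FPKM in SCI and 44.7 ± 4.96 in sham libraries (SD, n = 3 each) and Marcksl1 at 123 ± 10.6 in SCI and 62.9 ± 0.416 in sham libraries. Tuba1a, the tubulin gene that is the most abundant of the list, was at 1815 ± 267 FPKM in SCI and 1284 ± 41.6 FPKM in sham libraries (log2 change 0.49). The tubulin gene Tubb2b, which is abundant in growing neurons, had the largest rise of the list, to 500 ± 45.0 FPKM in SCI against 166 ± 8.04 in sham libraries. The stathmins Stmn3 and Stmn2, regulators of microtubule growth, were lower: Stmn3 had a log2 change of −1.13, and Stmn2 (SCG10), itself linked to axon regeneration, had one of −0.65 (limma adjusted p = 0.024). The 18 genes include several that glia express too, and which cells made these transcripts was not measured.

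Genes listed around GAP-43 and BASP1 were mostly lower, with 9 of 11 tested lower and 1 higher. The list mixes partners and regulators with other genes, such as those of further calmodulin-binding proteins. The largest change was that of Pcp4, which encodes a calmodulin-binding protein, at −1.55. The calmodulin genes Calm2 and Calm3 had log2 changes of −0.81 and −0.89. Elavl4, whose product HuD stabilises the Gap43 messenger, was at 14.6 ± 5.76 FPKM in SCI and 35.0 ± 1.25 FPKM in sham libraries (SD, n = 3 each; log2 change −1.28). The 1 that rose was Ncan, at a log2 change of 1.07. It encodes neurocan, a proteoglycan of the extracellular matrix and not of the inner membrane. Gap43 rose in libraries where the messenger of its RNA-binding protein fell, and whether the changes share a cell type was not measured.

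Sprr1a was at 79.3, 84.2 and 97.0 FPKM in SCI replicates 1, 2 and 3, against 0.17, 0.27 and 1.40 FPKM in sham replicates 1, 2 and 3. The SCI libraries lay close together, and all were far above the highest sham library. Its log2 change of 5.84 (SE 0.26, limma adjusted p = 1.2e-05) was the fifth largest among all genes tested. The mean was 142-fold higher, at 86.8 ± 9.11 FPKM in SCI and 0.613 ± 0.683 FPKM in sham libraries (SD, n = 3 each). That fold rests on sham values near 0, and the log2 change was 7.35 with a pseudocount of 0.1 in place of 1.

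The other Sprr genes and 9 keratinocyte genes were low in all libraries, at no more than 5.89 FPKM. Sprr1b, Sprr2e, Sprr2k and Sprr3 were listed at 0 in all 6 libraries, and the highest value among the other Sprr genes was 1.98 FPKM, that of the pseudogene Sprr2j-ps in SCI replicate 3. Krt5, a keratin of basal keratinocytes, was at 0.05, 0 and 0 FPKM in SCI replicates 1, 2 and 3 and at 0, 0 and 0.20 in sham replicates 1, 2 and 3, and Krt14, its pairing partner, was at 0 in every SCI library and at no more than 0.09 in sham libraries. Over the 9 keratinocyte genes with a value, FPKM summed to between 4.27 and 7.03 in SCI and between 7.77 and 12.2 in sham libraries. Tgm1, the transglutaminase that crosslinks SPRR proteins in skin, was at 93.9, 52.2 and 75.6 FPKM in SCI replicates 1, 2 and 3 and at 0.15, 0.10 and 0.17 in sham replicates 1, 2 and 3 (log2 change 6.0, limma adjusted p = 7.8e-06). Tgm2, its relative in many tissues, had a log2 change of 2.72.

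The promoter of Sprr1a is shown beside those of Gadd45a, which rose, and Flrt3, which did not pass, because these differ in short motifs of the AP-1 and ATF families that act in the regeneration response. Each is the 250 bases before the gene's start in RefSeq (build GRCm38.p6, minus strand, 5′ to 3′), at chr3:92485882-92486131 for Sprr1a, chr6:67037408-67037657 for Gadd45a and chr2:140671477-140671726 for Flrt3, with capitals for motif matches. Capitals mark the AP-1 motif, TGANTCA. They also mark an ATF or CRE-like motif, TGANNTCA. They mark as well the core promoter box TATAAA, and all were searched on both strands, where no match overlapped another.
Sprr1a: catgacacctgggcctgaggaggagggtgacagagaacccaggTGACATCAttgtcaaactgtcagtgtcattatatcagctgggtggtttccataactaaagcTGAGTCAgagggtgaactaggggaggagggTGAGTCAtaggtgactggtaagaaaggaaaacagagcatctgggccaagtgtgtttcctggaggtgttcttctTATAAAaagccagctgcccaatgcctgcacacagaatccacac
Gadd45a: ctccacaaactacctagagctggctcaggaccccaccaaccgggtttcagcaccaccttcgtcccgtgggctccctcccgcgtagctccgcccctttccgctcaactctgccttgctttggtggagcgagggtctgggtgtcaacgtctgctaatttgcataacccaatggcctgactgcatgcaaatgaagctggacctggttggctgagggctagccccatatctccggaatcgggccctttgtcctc
Flrt3: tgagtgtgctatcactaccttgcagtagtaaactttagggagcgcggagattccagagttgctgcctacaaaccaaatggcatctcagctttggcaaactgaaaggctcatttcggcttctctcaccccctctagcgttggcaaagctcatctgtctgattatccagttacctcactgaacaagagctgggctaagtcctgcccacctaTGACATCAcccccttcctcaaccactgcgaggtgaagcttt
The Sprr1a window held 2 AP-1 matches, 146 to 140 and 116 to 110 bases before the start, with 1 ATF or CRE-like match and 1 core promoter box. The Flrt3 window held 1 ATF or CRE-like match with the same 8 letters, TGACATCA, as in Sprr1a. The Gadd45a window held none of the 3 motifs, nor did those of Ecel1 and Basp1, the remaining genes of the 7 with a window in the table used. Much of the Ecel1 window (chr1:87156357-87156606) lies inside that gene as the deposited values list it, with an end at 87156521. The bases before that listed start of Ecel1 were thus searched only in part. The Sprr1a window reaches a few bases into the gene as listed, which ends at 92485895. The Gadd45a window lies outside the gene as listed, but GENCODE M21 puts the gene's end inside the window, at 67037457. Distances given here are from the RefSeq start. Among 32851 promoter windows of the same length, 6.75% held at least 1 AP-1 match and 0.338% held 2 or more, 11.9% held an ATF or CRE-like match and 12.4% a core promoter box. A match describes letters and is no measurement of binding.

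Nrn1 was at 36.3, 21.6 and 47.0 FPKM in SCI replicates 1, 2 and 3, against 91.1, 84.2 and 86.6 FPKM in sham replicates 1, 2 and 3. Every SCI library lay below every sham library, with SCI replicate 2 lowest, and the SCI libraries were spread more widely. The mean fell to 34.9 ± 12.7 FPKM in SCI, against 87.3 ± 3.50 FPKM in sham libraries (SD, n = 3 each), which is 40.0% of the sham level. The log2 change was −1.36 (SE 0.25, limma adjusted p = 0.0030), and only 1.24% of the genes tested had a lower one. In a piece of tissue, fewer cells of a type and less RNA per cell cannot be told apart. Neuronal genes fell with it, with 10 of 11 pan-neuronal genes lower and none higher at a median log2 change of −1.14, and their part in the fall of Nrn1 was not tested.

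Genes of the neuritin family and of synaptic plasticity had 4 of 8 tested members lower and 1 higher. Nrn1l, the only paralog of Nrn1, was at 0.873 ± 0.710 FPKM in SCI and 2.29 ± 0.606 FPKM in sham libraries (SD, n = 3 each; log2 change −0.87, limma adjusted p = 0.041), and the adjusted p was 0.066 without SCI replicate 3. The immediate early gene Arc and the neuronal pentraxin Nptx1 had log2 changes of −1.28 and −1.08, and Ntrk2, the BDNF receptor gene, had one of −0.56. Nptx2, the activity-regulated pentraxin, went the other way, at 9.76 ± 1.12 FPKM in SCI and 4.77 ± 0.643 FPKM in sham libraries (log2 change 0.90, limma adjusted p = 0.0010).

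Flrt3 was at 5.77, 5.05 and 7.58 FPKM in SCI replicates 1, 2 and 3, against 6.85, 6.0 and 6.23 FPKM in sham replicates 1, 2 and 3. The SCI libraries lay on both sides of the sham libraries, with SCI replicate 3 the highest of the 6. The log2 change of −0.06 did not pass (SE 0.14, limma adjusted p = 0.74), with a 95% interval from −0.40 to 0.28, and its sign turned under median-ratio scaling (0.023) and without SCI replicate 2 (0.052). The paralogs moved in opposite directions: Flrt2 was at 13.1 ± 2.72 FPKM in SCI and 7.88 ± 0.595 in sham libraries (SD, n = 3 each; log2 change 0.66), and Flrt1 was at 2.30 ± 0.192 in SCI and 4.45 ± 0.0764 in sham libraries (log2 change −0.72).

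Over the FLRT family and its binding partners, 8 of 13 tested were lower and 1 was higher, with a median log2 change of −0.52. The repulsive receptor Unc5a had a log2 change of −1.13, the teneurin Tenm2 one of −1.09 and the latrophilin Adgrl1, which binds FLRT3 at synapses, one of −0.70. The other latrophilins listed, Adgrl2 and Adgrl3, had log2 changes of −0.27 and −0.23 and did not pass (limma adjusted p = 0.066 and 0.099). Fgfr1, whose signalling FLRT proteins modulate, was at 35.8 ± 3.13 FPKM in SCI and 32.4 ± 1.56 FPKM in sham libraries (SD, n = 3 each) and did not pass (limma adjusted p = 0.22). Flrt3 lies inside the span of Macrod2 on the opposite strand, and Macrod2 had a log2 change of −0.87. No source read here says how strand was used in counting, so reads of such overlapping pairs may have been shared.

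Ecel1 was at 32.8, 29.2 and 33.2 FPKM in SCI replicates 1, 2 and 3, against 28.3, 20.2 and 22.8 FPKM in sham replicates 1, 2 and 3. All SCI libraries lay above all sham libraries, but SCI replicate 2 exceeded sham replicate 1 by little. The mean was 1.34-fold higher, at 31.7 ± 2.18 FPKM in SCI and 23.7 ± 4.12 FPKM in sham libraries (SD, n = 3 each), with a log2 change of 0.41 (SE 0.13, limma adjusted p = 0.027). The call ended without SCI replicate 1 (adjusted p = 0.074), SCI replicate 3 (0.070), sham replicate 2 (0.083) or sham replicate 3 (0.080), and when low genes were tested as well (adjusted p = 0.056).

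The metallopeptidases related to ECEL1 had 3 of 4 tested members lower and 1 higher. Ece1, the endothelin-converting enzyme that endothelial cells use, was at 38.1 ± 3.05 FPKM in SCI and 18.1 ± 0.593 in sham libraries (SD, n = 3 each; log2 change 1.03). Ece2, its relative in neurons, had a log2 change of −0.83, neprilysin (Mme) one of −1.26 and Mmel1 one of −0.88. Phex and Kel were too low to test. Endothelial genes had 6 of 8 members higher and 1 lower, and their part in the rise of Ece1 was not tested.

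Gadd45a was at 34.5, 34.6 and 38.1 FPKM in SCI replicates 1, 2 and 3, against 12.4, 11.5 and 9.74 FPKM in sham replicates 1, 2 and 3. The groups were far apart and each was narrow. The mean was 3.18-fold higher, at 35.7 ± 2.08 FPKM in SCI and 11.2 ± 1.37 FPKM in sham libraries (SD, n = 3 each), with a log2 change of 1.59 (SE 0.10, limma adjusted p = 4.1e-05). The transcript E230016M11Rik overlaps Gadd45a on the other strand and was lower, at a mean of 2.76 FPKM in SCI and 4.23 FPKM in sham libraries.

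Both other Gadd45 genes rose as well. Gadd45b was at 31.1 ± 1.26 FPKM in SCI and 13.1 ± 2.28 in sham libraries (SD, n = 3 each; log2 change 1.19), and Gadd45g was at 47.7 ± 7.00 in SCI and 19.2 ± 4.18 in sham libraries (log2 change 1.28). Of 15 genes of the Gadd45 family and the p53 response, 8 were higher and 3 lower, or 1 lower without sham replicate 3, with a median log2 change of 0.52. Cdkn1a, the cell cycle inhibitor p21, had a log2 change of 1.56, and Pcna, the replication clamp that GADD45 proteins bind, had one of 1.65. Phlda3, a p53 target and the second most abundant gene of the list, was at 88.5 ± 7.12 FPKM in SCI and 95.8 ± 10.4 FPKM in sham libraries and did not pass (limma adjusted p = 0.38).

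**Figure D2:**
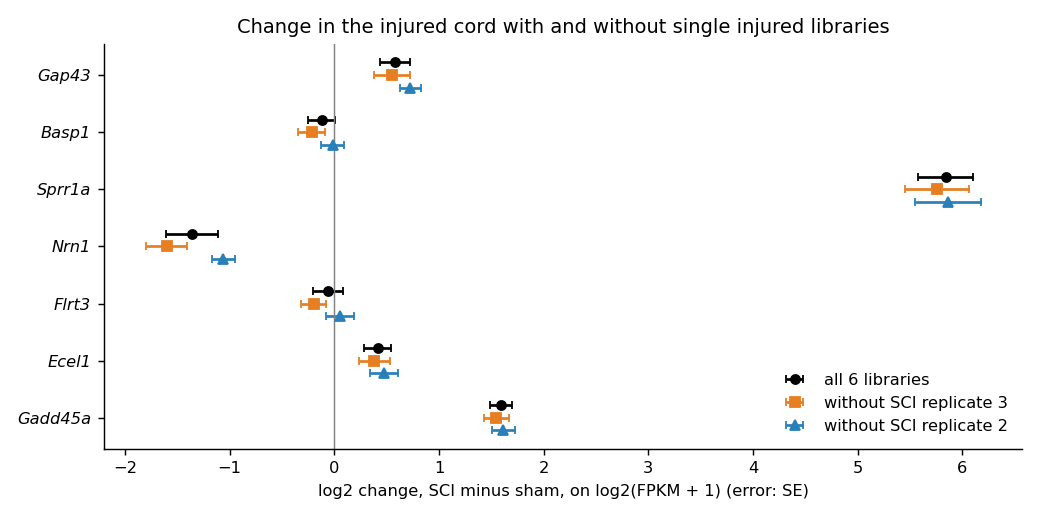
Log2 change (horizontal axis, SCI minus sham on log2(FPKM + 1), error bars SE) of each gene with all 6 libraries, without SCI replicate 3 and without SCI replicate 2. Sprr1a stays between 5.76 and 5.86 in these fits, Nrn1 reaches −1.60 when SCI replicate 3 is left out and −1.06 when SCI replicate 2 is, and Flrt3 lies on either side of 0.

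Most transcription factors listed as linked to regeneration rose, with 12 of 14 tested higher and none lower and a median log2 change of 1.33. The list was not sorted by whether a factor promotes or restrains growth, and Klf4 (log2 change 1.36) is among those that rose. Atf3 was at 49.6, 65.6 and 58.3 FPKM in SCI replicates 1, 2 and 3, against 1.84, 1.17 and 1.33 FPKM in sham replicates 1, 2 and 3 (log2 change 4.59, limma adjusted p = 7.8e-06). Jun was at 87.6 ± 5.04 FPKM in SCI and 28.2 ± 1.83 FPKM in sham libraries (SD, n = 3 each; log2 change 1.60). Cebpd, which encodes a C/EBP factor of inflammation, had a log2 change of 3.43, and Hif1a, the hypoxia factor and the most abundant gene of the list, one of 1.25. Sox11, a factor of growing neurons, stayed low, at 3.82 ± 0.700 FPKM in SCI and 1.76 ± 0.158 FPKM in sham libraries (log2 change 0.79). Klf9 and Creb1 did not pass.

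Other genes listed as linked to axotomy had 16 of 23 tested members higher and 2 lower, with a median log2 change of 1.73. Without SCI replicate 3, 15 were higher and 2 lower. Csrp3 and Pirt were too low to test. They were at 9.65 and 14.57 FPKM in SCI replicate 3 and under 1 FPKM in the other SCI libraries and in all sham libraries. The neuropeptide galanin (Gal) was at 30.5, 30.2 and 56.8 FPKM in SCI replicates 1, 2 and 3 and at 8.79, 11.0 and 12.4 in sham replicates 1, 2 and 3. The largest rises of the list were those of Socs3 (4.25 on the log2 scale) and the urokinase receptor Plaur (4.12), and those of Lgals1, the most abundant member over the 6 libraries, and the heat shock gene Hspb1 were 3.17 and 3.51. Lower were Cckbr, at −0.95, and the stathmin Stmn1, the second most abundant member, at −0.60. Several of these genes are also made by phagocytes, and 10 of 10 macrophage genes rose, among them Arg1 (7.53) and Clec4d (4.88), with summed values of 1654 to 2824 FPKM in SCI and 116 to 158 in sham libraries. Microglia genes rose too, with 9 of 10 higher and none lower at a median log2 change of 1.61. The part of phagocytes, microglia among them, in the rises of Sprr1a, Gadd45a and the axotomy genes was not tested.

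**Figure D3:**
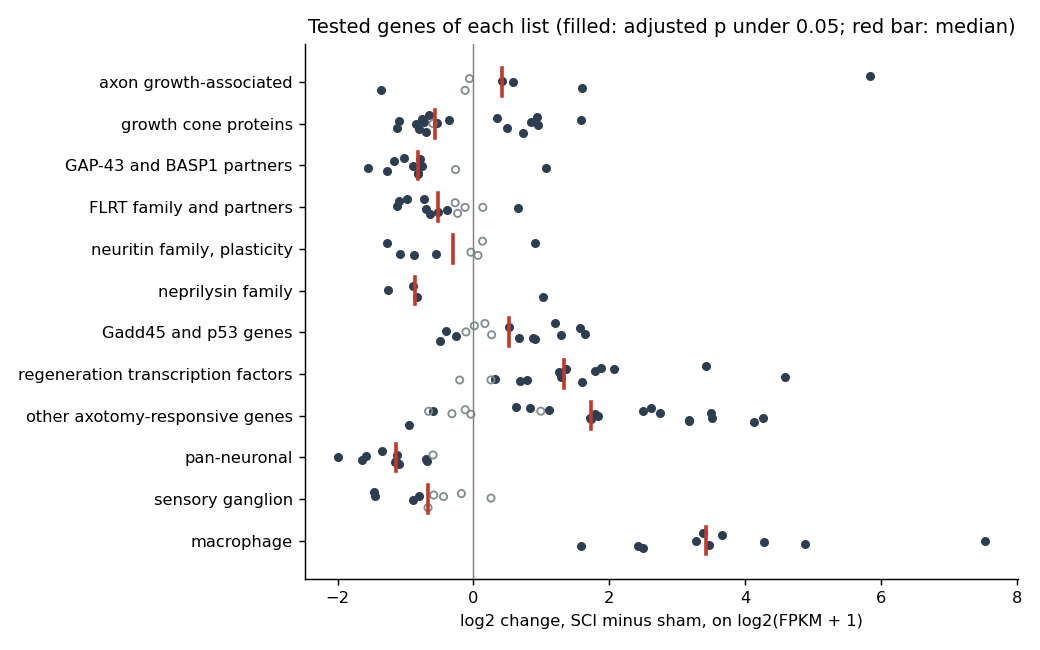
Log2 change (horizontal axis, SCI minus sham on log2(FPKM + 1)) of every tested gene in the 7 axon growth-associated genes and 11 gene lists (rows); filled points passed an adjusted p under 0.05, open points did not, and red bars are medians. The median lies at 0.41 for the 7 genes, at 1.33 for regeneration transcription factors and at −1.14 for pan-neuronal genes.

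The library labelled SCI replicate 3 held transcripts of sensory ganglion neurons. Avil (advillin) was at 17.3 FPKM there, against 0.42 and 0.26 in SCI replicates 1 and 2 and 0.50, 0.21 and 0.15 in sham replicates 1, 2 and 3. Scn10a, the sodium channel of pain-sensing neurons, was at 6.60 FPKM there and listed at 0 in the other 5 libraries, as was Mrgprd, at 1.96. Of 19 ganglion genes with a value, 18 had their top injured value in SCI replicate 3, and 9 were under 1 FPKM in each of the other 5 libraries. Their FPKM summed to 188, 167 and 464 in SCI replicates 1, 2 and 3, against 431, 468 and 408 in sham replicates 1, 2 and 3, and that sum is mostly made of genes that cord neurons also express, such as Sncg, Prph and Calca. The sum over 6 skeletal muscle genes was also highest there, at 45.7, 11.4 and 434 FPKM in SCI replicates 1, 2 and 3, against 35.2, 18.0 and 110 in sham replicates 1, 2 and 3. One of the 6, Myh4, was at 12.6 FPKM in SCI replicate 3, against 15.85 in sham replicate 3. Schwann cell genes were not, with sums of 332, 607 and 368 FPKM in SCI replicates 1, 2 and 3, against 2202, 813 and 2213 in sham replicates 1, 2 and 3.

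**Figure D4:**
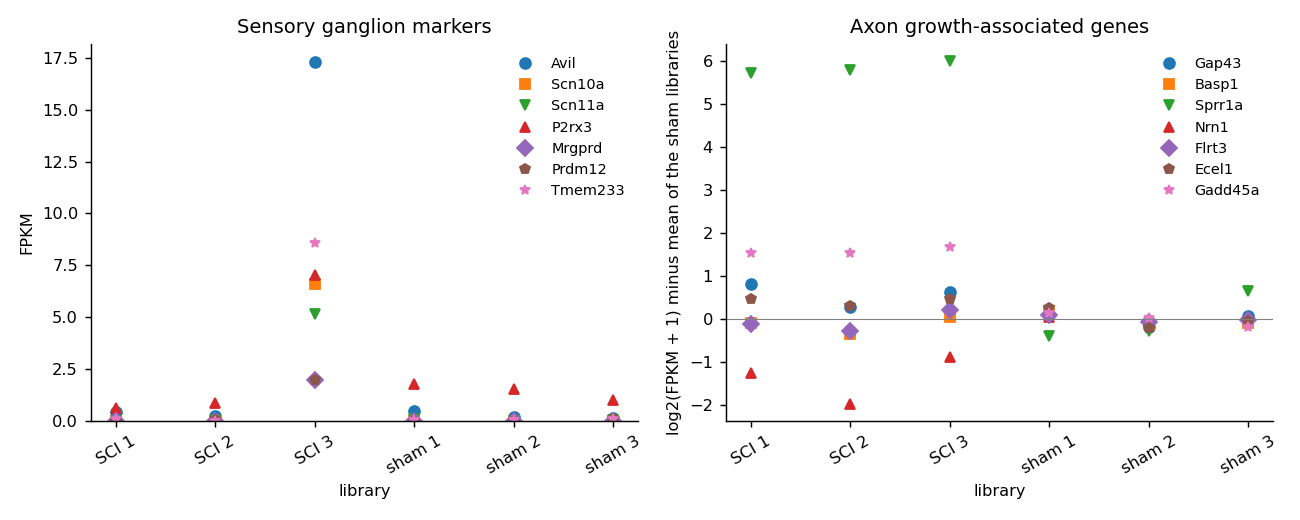
Left, FPKM (vertical axis) of 7 sensory ganglion markers in each library (horizontal axis); right, log2(FPKM + 1) of the 7 axon growth-associated genes minus their mean in the sham libraries. Avil reaches 17.3 FPKM in SCI replicate 3 and is under 1 in the other 5 libraries, while Sprr1a and Gadd45a are high in all 3 SCI libraries.

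Of the 7 growth-associated genes, 6 had their top injured value in SCI replicate 3, all but Gap43, and so did 37.5% of the genes tested. Without that library Sprr1a, Gadd45a and Gap43 still passed, Nrn1 was still lower, and Ecel1 did not pass; 24.9% of the genes tested were then higher and 30.0% lower. The mean of SCI replicates 1 and 2 over the sham mean was 133-fold for Sprr1a, 3.08-fold for Gadd45a, 1.49-fold for Gap43 and 1.3-fold for Ecel1. The log2 changes in this fit were 5.76 for Sprr1a, 1.55 for Gadd45a, 0.55 for Gap43 (limma adjusted p = 0.033) and 0.38 for Ecel1 (limma adjusted p = 0.070). SCI replicates 1 and 2 each lay above every sham library for all 4. This follows from the lack of overlap with all 6 libraries, which 67.6% of the genes tested showed in either direction. For Nrn1 the log2 change was −1.60 (limma adjusted p = 0.0011), larger in size than with all libraries.

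SCI replicate 2, the library with most haemoglobin, was the lowest injured library for 5 of the 7 genes, Gap43, Basp1, Nrn1, Flrt3 and Ecel1, as it was for 56.0% of the genes tested and for 11 of 11 pan-neuronal genes. Without it Gap43 had a log2 change of 0.73 and Nrn1 one of −1.06, and both passed (limma adjusted p = 0.0017 and 0.00046).

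Genes whose pattern over the 6 libraries was most like that of a growth-associated gene were sought among genes with a mean of at least 5 FPKM. Likeness was the root mean square difference of log2(FPKM + 1) after the sham mean of each gene was subtracted. For Sprr1a these were Lgals3 (0.36), Tgm1 (0.43) and Hmox1 (0.50), and for Gadd45a they were Nme2, Cstb and Tmem176b (0.093 to 0.099). For Nrn1 they were Dync1i1, which encodes a dynein chain of neurons, and Mrap2 (0.070 and 0.081). Gap43 was followed most closely by Pafah2, Tsc22d4 and Fads3 (0.075 to 0.085), Ecel1 by Cdc42ep3, Agtrap and Acer2 (0.060 to 0.065), Basp1 by B9d2, Mrpl41 and Mcts2 (0.037 to 0.054) and Flrt3 by Tmem177, Nqo1 and Msra (0.026 to 0.049). No gene came as close to Sprr1a as those of the other 6 did, and small values for Basp1 and Flrt3 go with small changes.

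On GRCm38 all 7 genes are protein-coding and lie on the minus strand, as the files list them. Gap43 (ENSMUSG00000047261) spans chromosome 16 from 42248442 to 42340651, Basp1 (ENSMUSG00000045763) chromosome 15 from 25363277 to 25413764, and Sprr1a (ENSMUSG00000050359) chromosome 3 from 92483952 to 92485895. Nrn1 (ENSMUSG00000039114) spans chromosome 13 from 36725361 to 36734477, where the predicted gene Gm30177 overlaps it on the other strand, and Flrt3 (ENSMUSG00000051379) chromosome 2 from 140650914 to 140671469. Ecel1 (ENSMUSG00000026247) spans chromosome 1 from 87147655 to 87156521 and Gadd45a (ENSMUSG00000036390) chromosome 6 from 67035096 to 67037406. The values are totals over each gene and do not separate its transcripts.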

How the data were processed

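Polyadenylated RNA from 3 SCI and 3 sham pieces of cord was sequenced with dUTP strand marking and molecular identifiers, per the labels' protocols. Per the file headers, the values the authors deposited are FPKM, with 2 decimals. Tools named in the submitters' processing notes, without roles, are StringTie 1.3.4d, HISAT2 2.0.4, cutadapt 1.9, DESeq2, edgeR and UMI-tools, and the build named there is mm9. The coordinates are those of GRCm38: of 36502 identifiers also in GENCODE M21, 88.2% had an identical position.

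FPKM hold no counts. Low values showed no step common to all genes (at most 3.20% of short low genes in 1 bin of ratios between libraries), so depth was not recovered and depth-based intervals are not given. No 2 libraries were identical.

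The test ran on log2(FPKM + 1) in limma 3.58.1 under R 4.3.3, fitting a mean-variance trend and group as the only term, over the 17435 of 36629 genes that reached 1 FPKM in 3 or more libraries. Changes are SCI minus sham on that scale, where changes of low genes come out too small. P-values were adjusted over all genes tested by the Benjamini-Hochberg method. The fit was first tested on simulated data. It found 12 of 50 genes given a log2 change of 0.5, 37 of 50 at 1, 45 of 50 at 2 and 50 of 50 at 4. Among 17235 unchanged genes it made 4 false calls. Far fewer genes changed there than passed here, so these shares need not carry over to the measured data.

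The 7 genes, the 22 context lists (254 genes, 246 with a value) and the alternatives were chosen with earlier results of these data known. From each list the rule named the 2 largest changes past the threshold and the 2 most abundant genes. The text names these for the lists of growth, regeneration and gene family; for most lists of cell types it gives counts or sums and not all the genes the rule chose. The other genes named, among them Marcks, Marcksl1, Stmn2, Nrn1l, Nptx2, Flrt1, Flrt2, Gadd45b, Gadd45g, Gal, Sox11, Hspb1 and the genes that went against their list, were chosen after their values were seen. 1 of the 3 genes most like Nrn1 is not reported here. For a symbol listed more than once, the more abundant entry was used. Alternatives were other pseudocounts, filters, scalings and limma settings, each library left out in turn, and the replicate number as a block.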

Additional observations from a re-analysis of the deposited data

How the results depend on the processing

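Sprr1a, Gadd45a and Gap43 stayed higher and Nrn1 lower, past the threshold, under every alternative run, namely 10 other settings and 6 fits that each left out 1 library. Over the fits without 1 library the log2 change ranged from 5.65 to 6.17 for Sprr1a, 1.50 to 1.66 for Gadd45a, 0.46 to 0.73 for Gap43, −1.60 to −1.06 for Nrn1, 0.31 to 0.54 for Ecel1, −0.22 to −0.016 for Basp1 and −0.20 to 0.052 for Flrt3. When low genes were tested too, Ecel1 kept its size (0.41, adjusted p = 0.056) and lost its call. Flrt3 changed sign under median-ratio scaling (0.023). The number of the 7 genes past the threshold was 5, or 4 where Ecel1 lost its call. Over all genes the count was 10024, and from 8354 to 9636 without 1 library; that of the context lists was 144 to 168 without 1 library. Among the named context genes without a call, the sign changed for Msra (0.011) and Nqo1 (0.051) under median-ratio scaling, and over the fits without 1 library for Acta1 (−0.63 to 2.29), Mylpf (−0.78 to 1.48), Nqo1 (−0.14 to 0.039) and Tmem177 (−0.21 to 0.016). In the growth cone list 10 genes were lower, but 6 when low genes were tested too, 6 without sham replicate 1 and 5 without sham replicate 3. Of the Gadd45 and p53 genes 3 were lower, but 1 without sham replicate 3, of the axotomy genes 2 were lower, but 4 with the replicate block, and of the ECEL1 relatives 1 was higher, but 2 when low genes were tested too. Deviations of same-numbered libraries from their group means correlated at −0.0076, −0.039 and 0.022. These values show no common deviation, but cannot tell whether same-numbered libraries were handled together. With the replicate block 9443 genes passed in place of 10024, and Ecel1 (0.41) and the other calls on the 7 genes were kept. The cause of these shifts was not tested. Without read counts, the precision of low values such as those of Sprr1a in sham libraries is unknown.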

Other observations

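The level of each gene was also set against the summed FPKM of 11 pan-neuronal genes in the same library, a measure chosen after the data were seen and given without a test. That sum was 2845, 2000 and 3450 FPKM in SCI replicates 1, 2 and 3, against 6269, 7041 and 6162 in sham replicates 1, 2 and 3, so a gene with an even FPKM comes out higher in SCI libraries on this scale. Each SCI library lay above each sham library for 6 of the 7 genes, Gap43, Basp1, Sprr1a, Flrt3, Ecel1 and Gadd45a, and likewise for 82.6% of the genes tested. Nrn1 was the exception, at 1.28%, 1.08% and 1.36% of the sum in SCI replicates 1, 2 and 3, against 1.45%, 1.20% and 1.40% in sham replicates 1, 2 and 3, where the groups overlapped. The neurofilament genes Nefl, Nefm and Nefh are the most abundant of the 11 in sham libraries, at means of 1568, 961 and 848 FPKM. Their log2 changes of −1.59, −1.64 and −2.00 were also the largest falls among the 11. A sum without them was not used, so the overlap for Nrn1 holds for this sum only. Which cells held the transcripts was not measured.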
